A study of Mus musculus with 9 samples.

Results

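The EGF receptor family is described here through 10 genes, the 4 ErbB receptors Egfr, Erbb2, Erbb3 and Erbb4 and 6 of their ligands, Hbegf, Tgfa, Btc, Egf, Ereg and Nrg1. They were taken by symbol from the 47729 gene rows of a count table of whole mouse retinas, and each symbol matched 1 row. The table holds 9 bulk RNA-seq libraries, 3 for each of 3 groups on a C57Bl6/J background. Yap CKO mice carried Yapflox/flox and Rax-CreERT2, a Cre that 4-hydroxytamoxifen (4-OHT) activates in Müller cells. Control mice carried Yapflox/flox without the Cre, although their genotype entry reads Yap CKO. Both groups received 4-OHT at postnatal day 10 (P10) and were taken at P60, with 1 frozen retina per library. C57 retinas were wild type and taken at P30, and their reads belong to an older series. MNU stands in the P60 library names, letters that in work on retinal degeneration usually stand for N-methyl-N-nitrosourea, an alkylating agent toxic to photoreceptors. The labels describe no such treatment, dose or interval. The labels do not say whether retinas of a group came from different animals, so the p-values measure the spread between these retinas.

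ErbB receptors are tyrosine kinases of the cell surface that act in pairs and signal through the RAS-ERK and PI3K-AKT pathways. Most of their ligands are made as membrane-anchored precursors and released by metalloproteases. HB-EGF, TGF-alpha, betacellulin, EGF and epiregulin bind EGFR, some of them ERBB4 as well, and neuregulins bind ERBB3 and ERBB4. In the retina the receptor is best known in Müller glia, the resident glia that span the tissue, where EGF or HB-EGF can drive cell cycle entry after injury. In zebrafish, HB-EGF is made by Müller glia at the injury site and takes part in regeneration. YAP, the coactivator encoded by Yap1, acts on DNA mainly through TEAD factors.

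Total counts were 34739679 to 37111783 in Yap CKO, 35759106 to 37629264 in control and 13760765 to 16808499 in C57 libraries. Levels are given as CPM, each gene's share of a library's counts on a common depth scale, with TMM scaling over the 9 libraries. Yap1 had 15.3, 21.5 and 24.3 CPM in Yap CKO, against 67.4, 61.0 and 57.6 CPM in control and 23.4, 25.1 and 30.4 CPM in C57. The lower Yap CKO level passed the test against control (log2 fold change -1.60, SE 0.17, edgeR adjusted p = 0.0327). That call was lost without Yap CKO 2 (adjusted p = 0.167), control 1 (0.111) or control 2 (0.106) and with sex as a covariate (0.0658), while the log2 fold change stayed at -1.35 or below in these fits. Rod markers (10 genes, summed) stood at 978 to 21400 CPM in Yap CKO, 3890 to 20300 CPM in control and 95200 to 110000 CPM in C57, so the P60 retinas held less rod RNA and differed widely among themselves. Müller glia markers (10 genes) summed to 5750 to 7340 CPM in Yap CKO, 5960 to 6820 CPM in control and 8080 to 9060 CPM in C57. Reactive glia markers (9 genes) summed to 2340 to 2820 CPM in Yap CKO, 2010 to 2310 CPM in control and 126 to 191 CPM in C57. Yap CKO 3 stood apart, with the fewest rod transcripts and with lens transcripts at 1140 CPM, against at most 25.6 CPM in any other library. By Xist and Y-linked transcripts, 2 Yap CKO retinas (1 and 2), no control and 2 C57 retinas were female, so sex and genotype were partly confounded at P60. All these are bulk levels, in which fewer cells of a type and less RNA per cell cannot be told apart.

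Promoter sequence could be matched for 6 of the members in the RefSeq table (build GRCm38.p6). They were Egfr, Erbb2, Erbb4, Tgfa, Btc and Egf, and Egf had windows at different starts. None was matched for Hbegf, Nrg1, Ereg and Erbb3, so these were not searched. The 250 bases before the annotated start are printed for 3 of the matched members. Egfr and Tgfa are shown because both were higher in control than in C57 retinas, Tgfa in Yap CKO retinas too, and Erbb2 because its window alone held a searched motif, which is in capitals.
Egfr, chr11:16751953-16752202, plus strand: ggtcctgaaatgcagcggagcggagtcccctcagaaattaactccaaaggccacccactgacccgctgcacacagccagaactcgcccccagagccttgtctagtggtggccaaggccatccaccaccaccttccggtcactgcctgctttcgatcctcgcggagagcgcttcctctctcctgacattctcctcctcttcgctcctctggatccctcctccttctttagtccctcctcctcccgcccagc
Tgfa, chr6:86194972-86195221, plus strand: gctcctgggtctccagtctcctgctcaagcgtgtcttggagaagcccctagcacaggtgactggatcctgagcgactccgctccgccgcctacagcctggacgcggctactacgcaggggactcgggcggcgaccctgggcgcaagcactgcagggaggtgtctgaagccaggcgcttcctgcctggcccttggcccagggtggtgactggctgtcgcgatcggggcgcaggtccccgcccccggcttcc
Erbb2, chr11:98412234-98412483, plus strand: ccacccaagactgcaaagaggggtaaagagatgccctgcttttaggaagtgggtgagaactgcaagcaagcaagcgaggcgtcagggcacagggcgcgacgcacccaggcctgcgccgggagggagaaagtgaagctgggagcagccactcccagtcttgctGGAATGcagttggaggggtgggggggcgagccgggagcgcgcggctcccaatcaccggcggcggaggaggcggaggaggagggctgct
The TEAD motif was searched as GGAATG and the AP-1 motif as TGANTCA, each on both strands, in windows of 300 bases that reach 50 bases past the start. A TEAD match was found in 1 of 7 member windows, in Erbb2 at position -88 from the start, and in 14.7% of all 32851 promoter windows. An AP-1 match was found in 0 of the 7 and in 7.81% of all windows. The printed stretches were rich in G and C, at 60.8% for Egfr, 69.2% for Tgfa and 66.0% for Erbb2, where the median of all windows over the same 250 bases was 52.4%. They held 11, 19 and 16 CpG dinucleotides in that order, against a median of 6.

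The Yap CKO comparison asks how the receptor family stood in retinas with a Müller cell deletion of Yap. Hbegf, the gene of HB-EGF, fell to 85.2 ± 2.64 CPM in Yap CKO, against 163 ± 28.1 CPM in control (SD, n = 3 each). Egfr, Nrg1, Erbb4, Ereg and Tgfa also had all 3 Yap CKO values under all 3 control values without passing the test. Of the 10 members, 1 was called lower and 0 higher at an edgeR adjusted p under 0.05, where 0.181% of the 16539 tested genes were called lower and 0.0181% higher. Negative log2 fold changes were found for 9 of 10 members, with medians of -0.63 over the receptors and -0.73 over the ligands, while 47.7% of all genes were negative and their median was 0.01. Groups without overlap, Yap CKO lower, were found for 6 of 10 members and for 12.1% of all genes. At an unadjusted p under 0.05 the same 6 members were lower, as were 9.25% of all genes. DESeq2 called 5 members lower (3.38% of all genes), namely Hbegf, Egfr, Nrg1, Erbb4 and Ereg, and limma-voom called none (0.0846% of all genes).

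**Figure D1:**
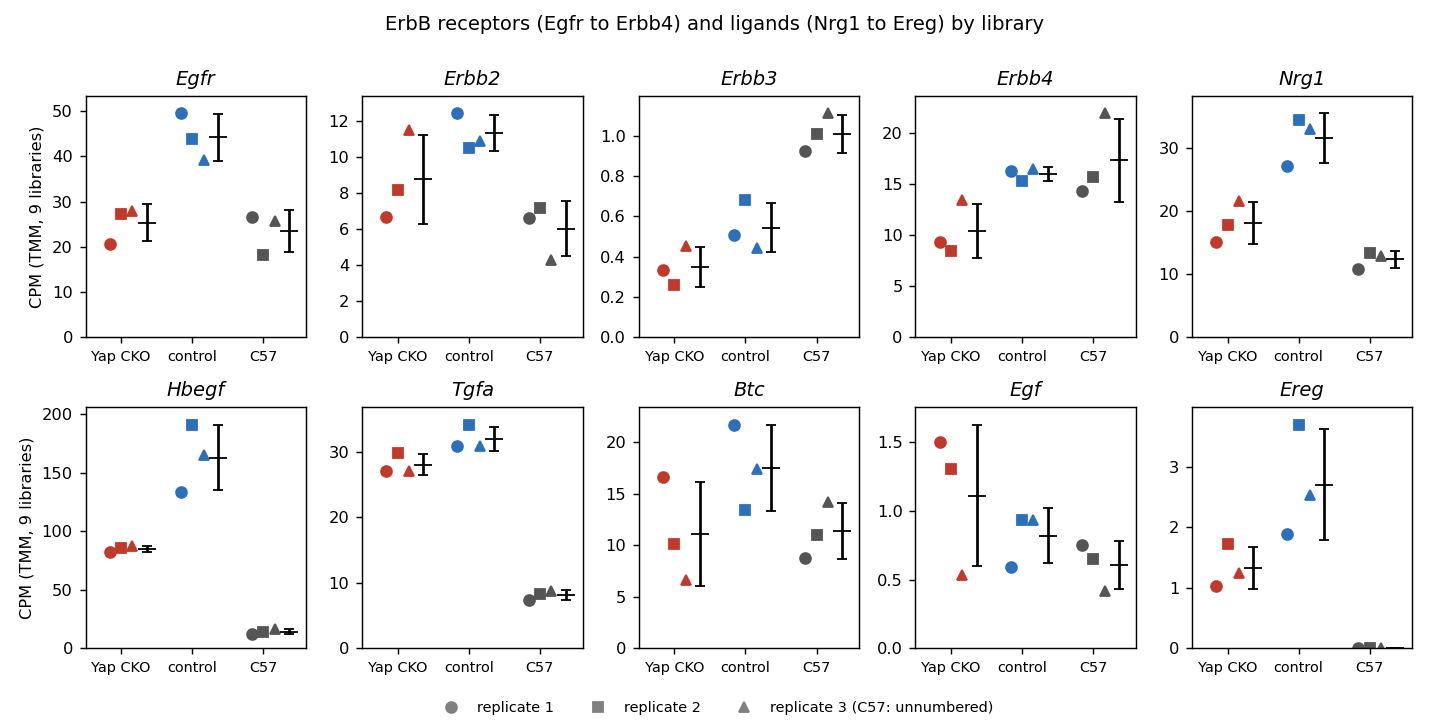
Level of each member (vertical axis, CPM, linear from 0) in the 3 Yap CKO (red), 3 control (blue) and 3 C57 libraries (grey); symbols mark the replicate and the black line and bar the mean and SD. Hbegf reached 82.4 to 87.6 CPM in Yap CKO, 134 to 191 CPM in control and 11.9 to 16.4 CPM in C57, and Ereg was at 0 in every C57 library.

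Among the receptors, Egfr (ENSMUSG00000020122, chromosome 11, 16752203 to 16918158, plus strand, GRCm38) encodes the receptor for EGF, HB-EGF and TGF-alpha. It had 20.6, 27.3 and 27.9 CPM in Yap CKO, 49.5, 43.9 and 39.3 CPM in control and 26.6, 18.2 and 25.8 CPM in C57. The control libraries were the highest and did not overlap with either other group, while Yap CKO and C57 overlapped. Control was 1.84-fold above C57 (log2 0.88, SE 0.17, edgeR adjusted p = 0.0041). Yap CKO missed the threshold against control (log2 -0.81, SE 0.14, edgeR adjusted p = 0.0676, rank 101 of 16539 by p). Yap CKO against C57 gave log2 0.06 (SE 0.19, adjusted p = 0.819), with the sign turning to -0.01 without Yap CKO 3 and to -0.10 without C57 2. Against control, Egfr passed in 4 of 17 alternatives. These were DESeq2 (adjusted p = 1.58e-05) and, by edgeR, no count filter (0.0149), the rod level as a covariate (0.0185) and the removal of Yap CKO 3 (0.0291).

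Erbb2 (ENSMUSG00000062312, chromosome 11, 98412470 to 98437716, plus strand) encodes the co-receptor that has no ligand of its own. It had 6.65, 8.14 and 11.5 CPM in Yap CKO, 12.4, 10.5 and 10.9 CPM in control and 6.62, 7.14 and 4.30 CPM in C57. Yap CKO 3, the library with lens transcripts, lay within the control range and the other Yap CKO libraries lay below it. Control was higher than C57 (log2 0.87, SE 0.20, adjusted p = 0.00966). Yap CKO stood at log2 -0.36 against control (SE 0.19, adjusted p = 0.38), which became -0.60 (adjusted p = 0.0344) without Yap CKO 3 and 0.03 with sex as a covariate, a fit that sets Yap CKO 3 alone against the controls.

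Erbb4 (ENSMUSG00000062209, chromosome 1, 68032186 to 69108059, minus strand) encodes a receptor for neuregulins that also binds HB-EGF and betacellulin. It had 9.33, 8.40 and 13.4 CPM in Yap CKO, 16.3, 15.3 and 16.5 CPM in control and 14.3, 15.7 and 21.9 CPM in C57. Yap CKO was lowest without overlap with either other group, and control and C57 overlapped. The difference passed against C57 (log2 -0.79, SE 0.24, edgeR adjusted p = 0.028) but not against control (log2 -0.63, SE 0.17, adjusted p = 0.13). The call against C57 was lost without Yap CKO 1, Yap CKO 2, C57 2 or the unnumbered C57 library (4 of 17 alternatives, highest adjusted p = 0.112). Against control, the log2 fold change was -0.85 without Yap CKO 3 (adjusted p = 0.0107) and -0.27 with the sex covariate. Control against C57 gave log2 -0.15 (adjusted p = 0.516), with the sign turned (0.06) when the unnumbered C57 library was left out.

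Erbb3 (ENSMUSG00000018166, chromosome 10, 128567523 to 128589652, minus strand) encodes the neuregulin receptor with an impaired kinase. It was the lowest receptor, at 0.331, 0.260 and 0.454 CPM in Yap CKO, 0.507, 0.679 and 0.442 CPM in control and 0.922, 1.01 and 1.11 CPM in C57. C57 was highest without overlap, and the P60 groups overlapped. Yap CKO (log2 -1.57, SE 0.33, edgeR adjusted p = 0.00656) and control (log2 -0.93, SE 0.28, adjusted p = 0.0276) were both lower than C57. These values rest on 10 to 27 reads per library, and the control call was lost in 8 of 16 alternatives, among them thinning of the P60 libraries to the C57 depth (adjusted p = 0.0773) and leaving out control 1, control 3, C57 2 or the unnumbered C57 library.

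Of the ligands, Hbegf (ENSMUSG00000024486, chromosome 18, 36504927 to 36515805, minus strand) had 82.4, 85.7 and 87.6 CPM in Yap CKO, 134, 191 and 165 CPM in control and 11.9, 14.4 and 16.4 CPM in C57. The groups were fully separated, and the Yap CKO libraries lay close together between control and C57. Against control the log2 fold change was -0.94 (SE 0.13, edgeR adjusted p = 0.0496). The adjusted p sat at the edge of the threshold, and the call was lost in 11 of 17 alternatives, including the removal of any library other than Yap CKO 3 (adjusted p 0.0561 to 0.252), while the log2 fold change stayed between -1.07 and -0.81 in all 17. DESeq2 gave the lowest adjusted p (2.43e-09). Control was 11.2-fold above C57 (log2 3.49, SE 0.19, adjusted p = 1.92e-05) and Yap CKO 5.81-fold (log2 2.54, SE 0.15, adjusted p = 2.81e-05), and both calls held in all 17 alternatives. By p, Hbegf ranked 78 of 15820 genes for control and 44 of 15840 for Yap CKO against C57.

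Tgfa (ENSMUSG00000029999, chromosome 6, 86195223 to 86275719, plus strand), the gene of TGF-alpha, had 27.0, 29.8 and 27.1 CPM in Yap CKO, 30.8, 34.1 and 30.9 CPM in control and 7.37, 8.29 and 8.82 CPM in C57. Both P60 groups were far above C57 and near each other. It rose 3.32-fold in Yap CKO (log2 1.73, SE 0.15, edgeR adjusted p = 9.8e-05) and 3.82-fold in control (log2 1.93, SE 0.13, adjusted p = 4e-05), both against C57. Yap CKO against control was at log2 -0.19 (SE 0.08, adjusted p = 0.277) and did not pass in any alternative.

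Ereg (ENSMUSG00000029377, chromosome 5, 91074622 to 91093646, plus strand) encodes epiregulin. It had 1.04, 1.72 and 1.24 CPM in Yap CKO and 1.90, 3.70 and 2.53 CPM in control, while no read was counted among the 46582128 of the C57 libraries. Set against 3 counts over the C57 group (0.0746 CPM), it was at least 17.8-fold higher in Yap CKO and at least 36.5-fold higher in control (edgeR adjusted p = 0.00115 and 0.000956). Ereg passed the count filter of both tests only through the P60 libraries, where it was high, so these p-values are not independent support. Yap CKO stood at log2 -1.02 against control (SE 0.30, adjusted p = 0.151) without overlap, and passed in 1 of 17 alternatives (DESeq2, adjusted p = 0.0451).

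Btc (ENSMUSG00000082361, chromosome 5, 91357261 to 91402994, minus strand) encodes betacellulin. It had 16.6, 10.1 and 6.63 CPM in Yap CKO, 21.7, 13.4 and 17.4 CPM in control and 8.80, 11 and 14.2 CPM in C57. All 3 groups overlapped, and none of the comparisons passed (log2 -0.65 for Yap CKO against control, 0.59 for control against C57 and -0.08 for Yap CKO against C57, edgeR adjusted p = 0.404, 0.07 and 0.873). Within each P60 group the Btc levels had the same order as the summed rod markers, which were 21400, 11300 and 978 CPM in Yap CKO and 20300, 3890 and 10200 CPM in control. They also had the order of the 8 cone markers, summed to 362, 151 and 73.7 CPM in Yap CKO and 310, 87.3 and 173 CPM in control. The 8 pigment epithelium markers had that order too, summed to 291, 218 and 87.3 CPM in Yap CKO and 192, 165 and 181 CPM in control. Within C57 the order of Btc was the reverse of that of the rod markers, which summed to 110000, 105000 and 95200 CPM. The part of any of these cell types in the Btc values was not tested beyond a covariate. With the rod level as a covariate, Btc passed for Yap CKO against control (log2 -0.58, edgeR adjusted p = 0.0206).

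Egf (ENSMUSG00000028017, chromosome 3, 129677565 to 129755316, minus strand) was barely detected, at 1.5, 1.30 and 0.530 CPM in Yap CKO, 0.588, 0.930 and 0.933 CPM in control and 0.754, 0.649 and 0.416 CPM in C57. The groups overlapped and no comparison passed (edgeR adjusted p = 0.616, 0.352 and 0.191 for Yap CKO against control, control against C57 and Yap CKO against C57). The log2 fold change of 0.44 against control turned to -0.63 with sex as a covariate.

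Nrg1 (ENSMUSG00000062991, chromosome 8, 31814551 to 32884029, minus strand) encodes neuregulin 1 in many isoforms, 12 coding transcripts in GENCODE M21, which gene counts do not separate. It had 15, 17.7 and 21.6 CPM in Yap CKO, 27.1, 34.4 and 33.0 CPM in control and 10.8, 13.3 and 12.8 CPM in C57. The groups were fully separated, with Yap CKO in the middle. Control was 2.5-fold above C57 (log2 1.32, SE 0.15, edgeR adjusted p = 0.000375). Yap CKO missed the threshold against control (log2 -0.80, SE 0.15, adjusted p = 0.079) and against C57 (log2 0.51, SE 0.18, adjusted p = 0.0545). The first passed in 5 of 17 alternatives and the second in 6 of 17.

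Control against C57 sets P60 retinas with floxed Yap and 4-OHT against P30 wild-type retinas of another series. The groups differ in age, allele, 4-OHT, the MNU of the library names, series of origin, depth and sex, which cannot be told apart. Of the 10 members, 6 rose (Hbegf, Tgfa, Nrg1, Ereg, Egfr and Erbb2) and 1 fell (Erbb3), where 23.1% of 15820 genes were called higher and 22.4% lower. The ligands had a median log2 fold change of 1.63 and the receptors of 0.36, with 0.03 over all genes. Between Yap CKO and C57, which carry the same differences and the Cre, 3 members rose (Hbegf, Tgfa and Ereg) and 2 fell (Erbb3 and Erbb4), where 20.3% of 15840 genes were called higher and 20.2% lower. There the medians were 1.29 for the ligands and -0.36 for the receptors, with 0.02 over all genes. The 2 of 10 members called lower are near that background share. These comparisons share the C57 libraries, and Ereg passed the count filter of both only through the P60 libraries. Scaling by bipolar and amacrine markers in place of TMM, which takes rods out of the scaling, left every member call of both comparisons in place.

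**Figure D2:**
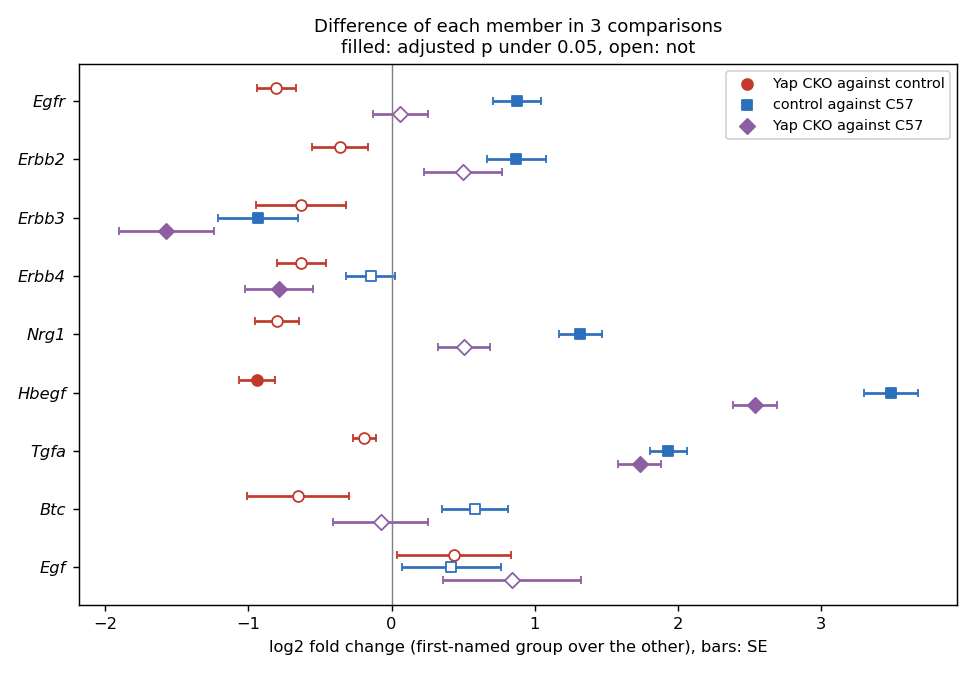
Log2 fold change of 9 members (horizontal axis, first-named group over the other; bars are SE) in the 3 comparisons, with filled symbols for an adjusted p under 0.05; Ereg is left out because C57 had 0 counts. Hbegf reached 3.49 for control and 2.54 for Yap CKO against C57, and was the filled symbol among the values for Yap CKO against control, at -0.94.

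Length-scaled levels (CPM per kb of exon union) allowed the members to be ordered within a group. Among receptors in Yap CKO the order was Egfr at 2.23 ± 0.36, Erbb2 at 1.68 ± 0.47, Erbb4 at 0.839 ± 0.214 and Erbb3 at 0.0579 ± 0.0163 CPM per kb (SD, n = 3). In control it was Egfr at 3.90 ± 0.45, Erbb2 at 2.16 ± 0.19, Erbb4 at 1.30 ± 0.06 and Erbb3 at 0.0902 ± 0.0203 CPM per kb. In C57 Egfr at 2.08 ± 0.41 led, followed by Erbb4 at 1.40 ± 0.33, Erbb2 at 1.16 ± 0.29 and Erbb3 at 0.169 ± 0.016 CPM per kb. Egfr and Erbb2 overlapped in Yap CKO, where their ranges were 1.82 to 2.46 and 1.28 to 2.20, but not in control. In C57 Egfr overlapped with Erbb4, and Erbb4 with Erbb2.

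Among the member ligands, the order by length-scaled level began with Hbegf in every group. Other ErbB ligands are not in this order, and Nrg3 had 2.36 CPM per kb in Yap CKO, 2.51 in control and 2.04 in C57. In Yap CKO, Hbegf at 17.6 ± 0.55 CPM per kb was followed by Tgfa (4.31 ± 0.25), Btc (2.46 ± 1.11), Nrg1 (1.75 ± 0.32), Ereg (0.323 ± 0.084) and Egf (0.0986 ± 0.0456). In control, Hbegf at 33.8 ± 5.82 was followed by Tgfa (4.92 ± 0.28), Btc (3.87 ± 0.92), Nrg1 (3.04 ± 0.38), Ereg (0.656 ± 0.221) and Egf (0.0725 ± 0.0176). In C57, Hbegf at 2.94 ± 0.46 was followed by Btc (2.51 ± 0.60), Tgfa (1.26 ± 0.11), Nrg1 (1.19 ± 0.13) and Egf (0.0538 ± 0.0153), with Ereg at 0. Hbegf was clear of the next ligand in Yap CKO and control, whereas in C57 the ranges of Hbegf (2.46 to 3.39) and Btc (1.95 to 3.15) overlapped. Tgfa and Btc overlapped in control only, Btc and Nrg1 in both P60 groups and Tgfa and Nrg1 in C57.

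Hbegf made up 66.4 ± 2.69% of the summed length-scaled level of the 6 ligands in Yap CKO, 72.6 ± 3.65% in control and 37.0 ± 0.02% in C57 (SD, n = 3). The sum was 26.6 ± 0.33 CPM per kb in Yap CKO, 46.3 ± 5.74 in control and 7.95 ± 1.26 in C57, without overlap between groups. The 3 Yap CKO libraries had ligand sums of 26.7, 26.8 and 26.2 CPM per kb. Within them Btc was at 3.66, 2.25 and 1.47 CPM per kb and Nrg1 at 1.45, 1.71 and 2.08 CPM per kb. The 4 receptors summed to 3.90, 4.70 and 5.82 CPM per kb in Yap CKO, 8.16, 7.24 and 6.97 in control and 4.94, 4.42 and 5.06 in C57. For the receptors, Yap CKO thus overlapped with C57 and lay under control.

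**Figure D3:**
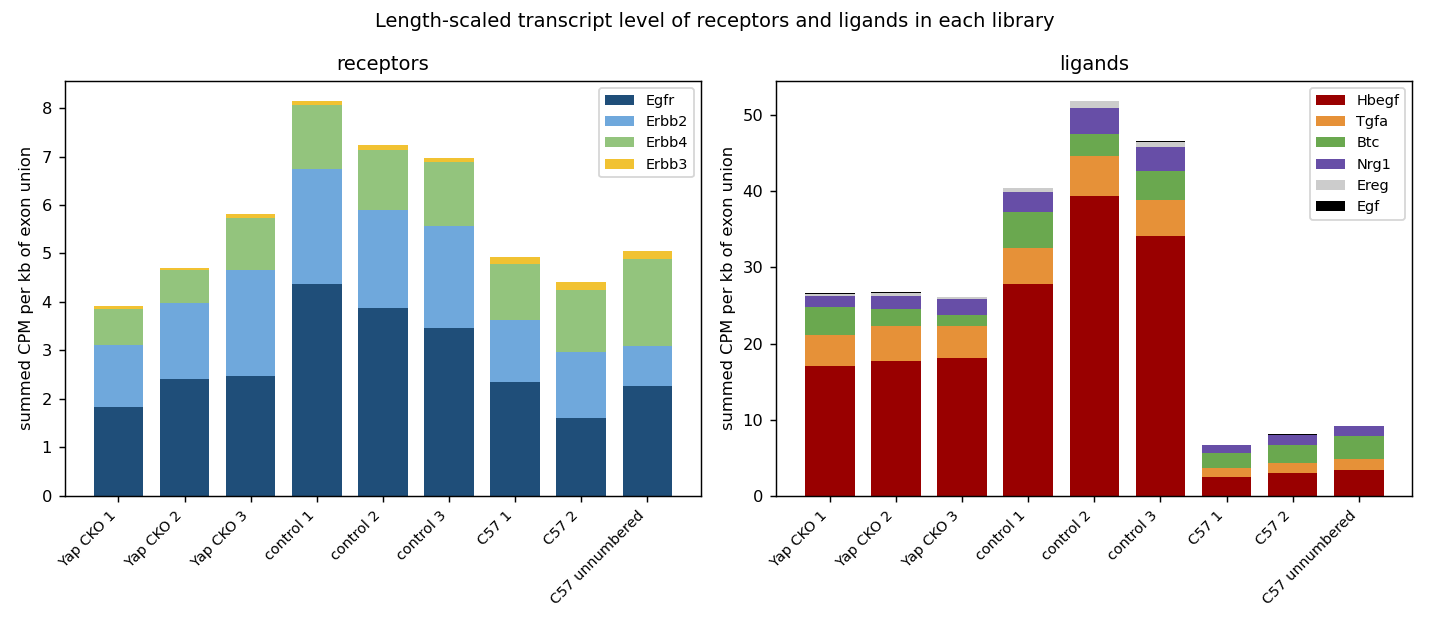
Summed CPM per kb of exon union in each library, stacked by receptor (left) and by ligand (right), with Yap CKO, control and C57 libraries from left to right. Hbegf is the bulk of the ligand bars at P60 (66.4% in Yap CKO and 72.6% in control) and 37.0% in C57, and the receptor bars of Yap CKO end between 3.90 and 5.82, under those of control.

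The ErbB ligands that are not members gave 4 tested genes, none of them called for Yap CKO against control. Areg (amphiregulin, an EGFR ligand) was at 1.63 ± 0.45 CPM in Yap CKO, 1.5 ± 0.34 CPM in control and 0.431 ± 0.135 CPM in C57, and rose in Yap CKO (log2 1.89, edgeR adjusted p = 0.00469) and control (log2 1.77, adjusted p = 0.00381) against C57. With 7, 5 and 5 reads in C57, Areg passed the count filter of both tests only through the P60 libraries. Its p-values are therefore not independent support. Nrg2 rose in Yap CKO (log2 0.84, adjusted p = 0.0238) and control (log2 0.99, adjusted p = 0.00833) against C57. Its Yap CKO call was lost when any 1 of the libraries Yap CKO 1, 2 or 3, C57 2 or the unnumbered C57 was left out (adjusted p 0.05 to 0.0988). Nrg3 was at 16.1 ± 1.83 CPM in Yap CKO, 17.1 ± 0.54 CPM in control and 13.9 ± 1.76 CPM in C57 and passed in no comparison (lowest edgeR adjusted p = 0.155). Nrg4 fell in control against C57 (log2 -1.03, edgeR adjusted p = 0.0169). This rests on 14, 19 and 18 reads in control and 10, 14 and 11 in the shallower C57 libraries. Its exons also overlap by 368 bases with Fbxo22 on the opposite strand, so its counts are uncertain. The call was lost without control 1 (0.0563), control 3 (0.0542) or C57 2 (0.0755). Epgn had at most 3 reads in any library and was not tested.

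Of 11 genes for ligand shedding, 1 fell in Yap CKO against control and 10 did not pass, with a median log2 fold change of -0.10. Over all genes 0.181% were called lower in that comparison. The gene that fell was Timp3, an inhibitor of the sheddase ADAM17, which had 163, 168 and 151 CPM in Yap CKO, 304, 335 and 380 CPM in control and 139, 148 and 193 CPM in C57. Its log2 fold change of -1.08 (SE 0.10, edgeR adjusted p = 0.0188) missed the threshold without Yap CKO 1, Yap CKO 2, control 1 or control 2 (adjusted p 0.0532 to 0.0811). Adam8, a protease also found in leukocytes, was at log2 1.16 (adjusted p = 0.0991), Rhbdf1, which encodes the ADAM17 partner iRhom1, at -0.51 (0.107) and Adam17 at -0.30 (0.151). Against C57, 5 of the 11 rose in Yap CKO and 5 in control, where 20.3% and 23.1% of all genes were called higher, with Rhbdf1 at log2 2.24 and 2.77 and Adam8 at 4.34 and 3.19. With 2, 5 and 2 reads in C57, Adam8 passed the count filter of both tests only through the P60 libraries. Its calls against C57 are therefore not independent support. Cd9, a tetraspanin that binds the HB-EGF precursor, rose by log2 0.80 and 0.92, and Adam12, a metalloprotease, by log2 1.71 and 1.66. In Yap CKO 1 gene fell and in control 0 fell, where 20.2% and 22.4% of all genes were called lower.

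Of 18 genes for receptor inhibition and turnover, 0 passed for Yap CKO against control by edgeR, while at an unadjusted p under 0.05 there were 8 lower and 0 higher (9.25% and 8.59% of all genes), and the median log2 fold change was -0.13. Socs4 and Lrig1, which promote EGFR degradation, stood at log2 -0.44 and -0.32 (edgeR adjusted p = 0.0619 and 0.0746), and Ptprj and Cblb at -0.30 each (0.145 each). Lrig1 rose against C57 in Yap CKO (log2 0.80, adjusted p = 0.00123) and control (log2 1.13, adjusted p = 0.000118). Socs5, a relative of Socs4, rose by log2 0.81 in Yap CKO and 0.98 in control, and Ptpn1, a tyrosine phosphatase, by log2 0.97 and 0.94. Sh3gl2, which encodes the endocytosis protein endophilin A1, fell by 0.79 in Yap CKO and by 0.74 in control on the log2 scale. In all, 4 rose and 2 fell in Yap CKO, and 5 rose and 1 fell in control, each of 18 and against C57, where 20.3% of all genes were called higher and 20.2% lower in Yap CKO, and 23.1% and 22.4% in control. The counts of genes that rose are near those shares, and the counts of genes that fell are below them. Of 28 receptor-proximal signalling genes, 0 passed for Yap CKO against control (at an unadjusted p under 0.05, 10 lower and 2 higher, with 9.25% and 8.59% of all genes), with Rasa1 at log2 -0.28, Nras at -0.37, Hras at 0.30 and Braf at -0.26 (edgeR adjusted p 0.0908 to 0.127). Against C57, 7 of the 28 rose and 3 fell in Yap CKO, and 7 rose and 1 fell in control. The genes that rose were near the share over all genes (20.3% in Yap CKO and 23.1% in control). Those that fell were below the share of lower calls (20.2% in Yap CKO and 22.4% in control). The genes that rose were led by Stat3 (log2 2.40 and 2.51), a transcription factor of cytokine signalling. The adaptor gene Shc1 rose by log2 0.96 in Yap CKO and 1.32 in control, and Nras by log2 0.93 and 1.31. The adaptor gene Gab1 rose by log2 0.72 in Yap CKO and 0.85 in control, and the kinase gene Map2k1 by log2 0.48 and 0.53. The Yap CKO call of Map2k1 was lost without C57 2 (adjusted p = 0.0581).

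Among 12 partners of ErbB receptors and other receptors of their ligands, 0 passed for Yap CKO against control (at an unadjusted p under 0.05, 6 lower and 0 higher, with 9.25% and 8.59% of all genes, median log2 -0.23). Cd44, a hyaluronan receptor that can carry HB-EGF and its protease, had 260, 303 and 325 CPM in Yap CKO, 434, 430 and 450 CPM in control and 12.8, 13.8 and 18.7 CPM in C57 (edgeR adjusted p = 0.0647 for Yap CKO against control). Axl, a receptor kinase known to pair with EGFR in tumour cells, was at log2 -1.03 (adjusted p = 0.102), the ERBB2-binding scaffold gene Erbin at -0.29 (0.115) and the heparan sulphate proteoglycan gene Sdc4 at -0.39 (0.169). Against C57, 8 of the 12 rose in Yap CKO and 9 in control, where 20.3% and 23.1% of all genes were called higher, and 0 of the 12 fell in either. Axl rose by log2 2.52 and 3.57 and Sdc4 by log2 1.42 and 1.82, each in Yap CKO first and then control. In the same order, the mucin gene Muc1 rose by log2 2.88 and 3.07 and the proteoglycan gene Sdc1 by log2 1.97 and 2.37. With 6, 5 and 5 reads in C57, Muc1 passed the count filter of both tests only through the P60 libraries. Its calls against C57 are therefore not independent support. Cd44 and Stat3 are also on the list of reactive glia markers, of which 8 of 9 rose in Yap CKO and 9 of 9 in control against C57. The part of reactive glia in the members' values was not tested.

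The genes most like Egfr over the 6 P60 libraries were Phactr2, Csf1, Tagln2, Slain1 and Ppfia1, with Pearson correlations of log2(CPM + 1) from 0.994 to 0.996. Those most like Hbegf were Timm17a, Rhoq, Vps37b, Emb and Stam, at 0.989 to 0.998. Over the same libraries Hbegf correlated with Nrg1 at 0.954 (rank 67 of 11343 genes at or above 5 CPM). Correlations of Hbegf with Tgfa, Egfr and Erbb4 were 0.884 (rank 337), 0.853 (rank 505) and 0.806 (rank 863). Those with Erbb2 and Btc were 0.572 (rank 2558) and 0.471 (rank 3183). These 6 points share the difference between Yap CKO and control and the scaling of each library.

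Beside the members' differences between Yap CKO and control stand those of the cell type markers. The summed levels of 3 marker lists did not overlap, while those of every other cell type list did. Among single genes, 12.1% had groups without overlap with Yap CKO lower, and the share with Yap CKO higher is not given here. Astrocyte markers (5 genes) summed to 149 to 189 CPM in Yap CKO and 190 to 218 CPM in control. Reactive glia markers, given above, and retinal ganglion cell markers (9 genes), at 2540 to 2760 CPM in Yap CKO and 2230 to 2490 CPM in control, had sums that were higher in every Yap CKO library than in any control library. The sums and the single genes differed in sign for astrocytes, where 3 of 5 genes had a positive log2 fold change (median 0.10), and for reactive glia, where 5 of 9 had a negative one (median -0.06). For ganglion cells 6 of 9 were positive (median 0.07). By edgeR 0 genes of the 3 lists were called, where 0.0181% of all genes were called higher and 0.181% lower. At an unadjusted p under 0.05 there were 1, 2 and 3 higher and 1, 2 and 0 lower in the order of the lists. Over all genes 8.59% were higher and 9.25% lower at that threshold. Of the 10 Müller glia markers, 0 were called between Yap CKO and control, 9 had a negative log2 fold change and the median was -0.09. Bipolar and amacrine medians were -0.03 and 0.00. Of 9 microglia and macrophage markers 0 were called, and their sum was 67.3 to 105 CPM in Yap CKO and 69.2 to 78.8 CPM in control. Of 7 ciliary epithelium markers tested, 0 were called and 6 were negative (median log2 -0.53). At an unadjusted p under 0.05, 4 of the 7 were lower and 0 higher, where 9.25% and 8.59% of all genes were. Their sums were 76.4 to 101 CPM in Yap CKO and 88.3 to 141 CPM in control. The part of these cell types in the lower Egfr, Nrg1, Erbb4 and Hbegf values was not tested.

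**Figure D4:**
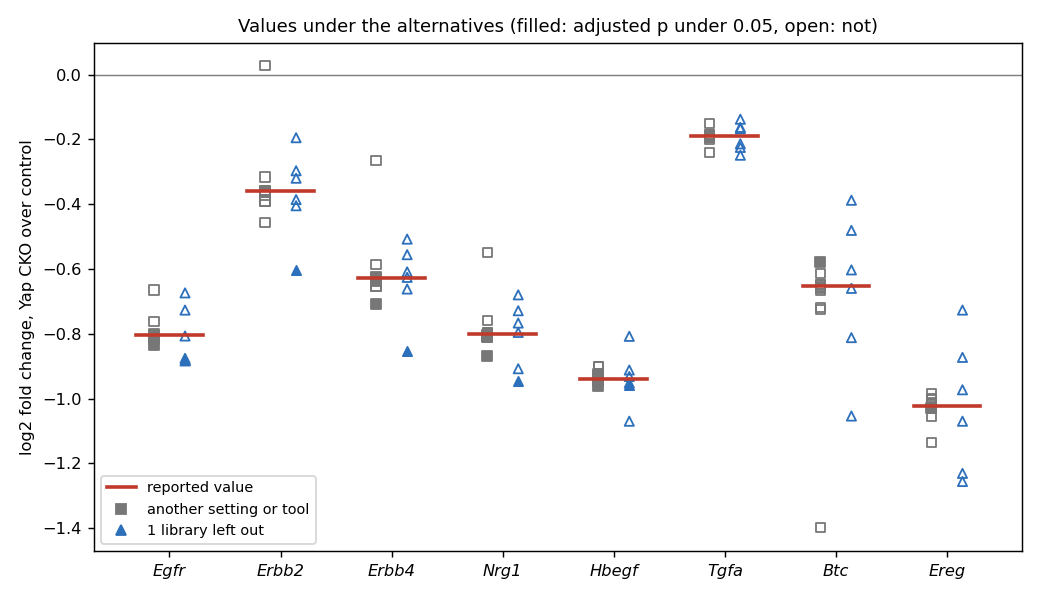
Log2 fold change of Yap CKO over control (vertical axis) for 8 members under the reported fit (red line), another setting or tool (grey squares) and with 1 library left out (blue triangles), filled where the adjusted p was under 0.05. Hbegf stayed between -1.07 and -0.81, and Erbb2 reached 0.03 with sex as a covariate.

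The authors' deposited table listed 5 of the 10 members, namely Egfr, Hbegf, Erbb4, Nrg1 and Btc. All 305 genes in that table have an unadjusted p under 0.05 for Yap CKO against control (highest 0.0489), so a gene's presence there is not independent of this contrast. In the authors' deposited table the log2 fold changes were -0.93 for Hbegf (adjusted p = 2.97e-05), -0.80 for Egfr (0.00346), -0.79 for Nrg1 (0.00263), -0.62 for Erbb4 (0.193) and -0.64 for Btc (0.633). Hbegf, Egfr and Nrg1 thus passed 0.05 in the authors' deposited table, and Erbb4 and Btc did not.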

How the data were processed

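Libraries of the P60 groups were made from 1 µg of RNA by a directional TruSeq protocol, per the labels' protocols. Per the submitters' processing notes, reads were processed with HISAT2 2.1.0, featureCounts and edgeR on GRCm38. No annotation release or strand setting of counting is named there, so genes overlapping on opposite strands may share reads. The deposited table holds whole-number counts per Ensembl gene, without normalization. The authors' deposited comparison table (305 genes) holds log2 fold changes and p-values with adjusted p-values, per the file headers. Its 9 columns of values per library were not used. One C57 column carries a number that no sample description shares. It was kept in the C57 group by its name and is called the unnumbered C57 library.

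Symbols and positions came from GENCODE M21 (GRCm38), which held 47310 of 47729 rows. For each comparison the 6 libraries concerned were fitted alone with edgeR 4.0.16 (filterByExpr with minimum count 10 and minimum total 15, TMM, robust quasi-likelihood F-test, R 4.3.3), with Benjamini-Hochberg adjustment over all tested genes and a threshold of 0.05. Adjusted p-values are edgeR's except where a sentence names DESeq2, limma-voom or the authors' table. Standard errors are the log2 fold change over the root of F. Printed CPM are TMM-scaled over all 9 libraries, so folds of printed means differ slightly from fitted ones. Length scaling used the union of annotated exons. Alternatives were RLE and upper-quartile scaling, no filter, 1 CPM in 3 libraries, DESeq2 1.42.0, limma-voom (limma 3.58.1), one fit of 9 libraries, bias-adjusted deviances, each library left out, the replicate block, rod level and sex covariates, thinning and scaling by inner retinal markers. Libraries of a group differed beyond sampling noise (chi-square per degree of freedom at least 22.6). The members, gene lists and tests were chosen with earlier results of these data known. Named were all members, the other ErbB ligands, Yap1, up to 4 genes per pathway list and comparison by smallest p at 1 CPM or more in a group, and the 5 genes most like Egfr and Hbegf. Of 202 list symbols, 2 were not matched.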

Additional observations from a re-analysis of the deposited data

How the results depend on the processing

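For Yap CKO against control, 33 genes and 1 member were called. These became 15 genes and 0 members with RLE scaling, with a filter of 1 CPM in 3 libraries, with limma-voom and with bias-adjusted deviances, 17 and 0 with upper-quartile scaling, 343 and 3 without a filter, 919 and 5 with DESeq2, 60 genes in one fit of 9 libraries, 1665 and 5 with the rod covariate, and 67 and 0 with the sex covariate. Leaving out 1 library gave 0 to 1473 genes and 0 to 5 members, the highest without Yap CKO 3. Without control 1 or control 2, 0 genes were called by edgeR (2035 and 2226 at an unadjusted p under 0.05). The share of higher calls was 9.1%, 24.2% without a filter, 39.2% with DESeq2, 45.8% with the rod covariate and 64.2% with the sex covariate. The cause was not tested.

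Numbers in the titles did not pair the samples: deviations from the group means correlated at 0.623, -0.146 and 0.006 for replicates 1, 2 and 3. With the replicate number as a block, 45 genes and 2 members (Hbegf and Nrg1) were called for Yap CKO against control. The Yap1 call was lost (adjusted p = 0.0732). For the C57 comparisons the block could use 4 numbered libraries each, and calls were lost for Nrg2 and Map2k1 in Yap CKO (0.0705 each) and for Erbb3 (0.268) and Nrg4 (0.0856) in control.

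With sex as a covariate the log2 fold change of Yap CKO against control turned for Erbb2 (0.027), Egf (-0.63), Areg (-0.011), Nrg2 (0.013), Nrg3 (0.09) and Nrg4 (-0.397). With 1 library left out, it ran from -0.112 to 0.317 for Areg and from -0.069 to 0.388 for Nrg4. In the block fit the sign turned for Erbb4 in control against C57 (0.042) and for Btc in Yap CKO against C57 (0.36). With 1 library left out, Erbb4 in control against C57 ran from -0.264 to 0.063, and in Yap CKO against C57 Egfr ran from -0.098 to 0.195 and Btc from -0.472 to 0.199. Yap CKO against C57 had 6419 calls and 3905 to 8013 with 1 library left out (3905 without Yap CKO 2 and 3986 without C57 2). The share of higher calls there was 50.1%, 55.4% with upper-quartile scaling and 56.9% when scaled by bipolar and amacrine markers. Without a filter the median log2 fold change of all genes stood at 0.23 in that comparison and 0.19 in control against C57, with 0.02 and 0.03 in the reported fits. Erbb3 rested on 10 to 27 reads per library, and Ereg on 41 to 147 in the P60 libraries.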

Other observations

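The locus of Egf holds an antisense transcript, Gm42697, whose exons overlap those of Egf by 607 bases on the opposite strand. Gm42697 had 0.306, 0.208 and 0.101 CPM in Yap CKO, 0.481, 0.0754 and 0.196 CPM in control and 20.4, 21.9 and 21.7 CPM in C57. Egf itself was at 0.416 to 1.5 CPM over the same 9 libraries. The antisense gene was chosen after its values were seen, no test was made of it, and with the strand setting of counting not given, reads in the shared exons of the pair cannot be told apart. Erbb2 shares 9 exonic bases with Mien1 on the opposite strand, which had 65.9, 69.4 and 50.6 CPM in Yap CKO, 44.0, 45.1 and 47.9 CPM in control and 74.1, 62.7 and 63.4 CPM in C57.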
